A study of Mus musculus with 6 samples.

Results

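The mitochondrial ribosome, or mitoribosome, is the particle that translates the few messenger RNAs encoded by mitochondrial DNA. Its protein subunits are encoded in the nucleus, made in the cytosol and imported, and then assemble with the mitochondrial ribosomal RNAs into a large and a small subunit. Genes of the large subunit carry the prefix Mrpl and those of the small subunit the prefix Mrps. The proteins made on this ribosome are subunits of the oxidative phosphorylation complexes, those of the respiratory chain and the ATP synthase. In T cells, mitochondrial translation and respiration are known to be engaged during activation and in the production of IL-17.

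Members were taken as rows whose symbol starts with Mrpl or Mrps and a number and which name 1 gene. This gave 73 of the 10041 rows in the table, 45 Mrpl and 28 Mrps. Levels are FPKM, fragments mapped to a gene per kilobase of its transcript and relative to the library's mapped fragments. Rows at or above 1 FPKM in 3 or more of the 6 libraries were tested, which kept 9986 rows and all 73 members. Of 78 symbols of the family in the GENCODE M21 annotation, 73 were members. Mrpl53 and Mrps6 stood in rows shared with another gene, Mrpl57 and Mrpl58 stood under the older names Mrp63 and Ict1, and Mrpl23 was not analysed here.

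RNA was measured in mouse naive CD4 T cells activated for 48 hours under conditions that give Th17 cells, a helper lineage known for IL-17. Both groups received plate-bound anti-CD3e at 10 µg/ml and anti-CD28 at 1 µg/ml, with IL-6 at 20 ng/ml, TGF-b1 at 2.5 ng/ml and IL-23 at 10 ng/ml. The control group, 3 libraries, received the vehicle DMSO, and the treated group, 3 libraries, received oligomycin, an inhibitor of the mitochondrial ATP synthase, at 2.5 ng/ml. Strain, age and genotype of the mice, and whether libraries came from separate animals, are not given in the labels, so p-values measure the spread between these libraries, which may be in part technical. In bulk RNA, fewer cells of a type and less RNA per cell cannot be told apart.

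FPKM sums ran from 1434028 to 2103404 per library and medians from 13.8 to 14.7 FPKM, and rows naming a small RNA held 71.1% to 82.2% of the sums. Sequencing depth is unknown, because the table holds no counts. Correlations of log2(FPKM + 1) over rows were 0.963 to 0.969 within DMSO, 0.940 to 0.962 within oligomycin and 0.890 to 0.937 between groups. For the labelled cell type, 6 of 7 T cell markers had a row, with a summed level of 867 to 1012 FPKM in DMSO and 846 to 1041 FPKM with oligomycin, and none of those 6 was called. All 6 Th17 markers had a row, and their sum was 1695 to 1959 FPKM in DMSO and 301 to 475 FPKM with oligomycin. The part of that difference in the values below was not tested. Of other cell types, 0 of 5 B cell markers and 0 of 7 myeloid markers had a row. Of the CD8 T cell markers 1 of 2 had a row, Cd8b1, at 2.41 to 3.30 FPKM. Of the NK cell markers 1 of 4 had a row, Klrd1, at 5.53 to 34.6 FPKM.

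Most mitoribosomal protein genes had a somewhat lower level with oligomycin, but few passed the test. By limma on log2(FPKM + 1), with Benjamini-Hochberg adjustment over all rows tested and a threshold of 0.05, 8 of the 73 genes fell and 3 rose. That is 11% lower and 4.11% higher, against a background over all 9986 rows of 16.1% lower and 14.0% higher. The share called lower was thus under the background, and the share called higher was further under it. Without oligomycin 1 the share called lower was above it, with 20.5% of members against 18.8% of all rows. The median log2 change of the 73 genes was -0.20, with quartiles of -0.33 and -0.06, against -0.00 over all rows. The sign was negative for 61 genes (83.6%), against 50.4% of all rows. All 3 oligomycin libraries lay below all 3 DMSO libraries for 26 genes (35.6%), against 24.3% of all rows, and above them for 4 genes (5.48%), against 23.1%. The changes were small: 64 genes (87.7%) moved by less than 0.5 on the log2 scale, against 70.8% of all rows.

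The scaling of the libraries bears on these values. With each library set to the same sum over rows that name no small RNA, the median of all rows moved by 0.10, and the share of all calls that were lower went from 53.4% to 40%. The members' median then became -0.09. Of the members, 4 fell and 4 rose (5.48% each), against 12.8% and 19.2% of all rows. Relative to the median of all rows, the members' median was -0.20 as deposited, -0.19 after that scaling and -0.13 after quantile normalization. Leaving out 1 library gave -0.15, -0.23 and -0.18 without DMSO 1, 2 and 3, and -0.24, -0.10 and -0.18 without oligomycin 1, 2 and 3. Under the scaling without small RNA rows, none of the 11 called genes changed sign, but 15 uncalled genes did. With that scaling 46 of 73 had a negative sign, in place of 61.

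**Figure D1:**
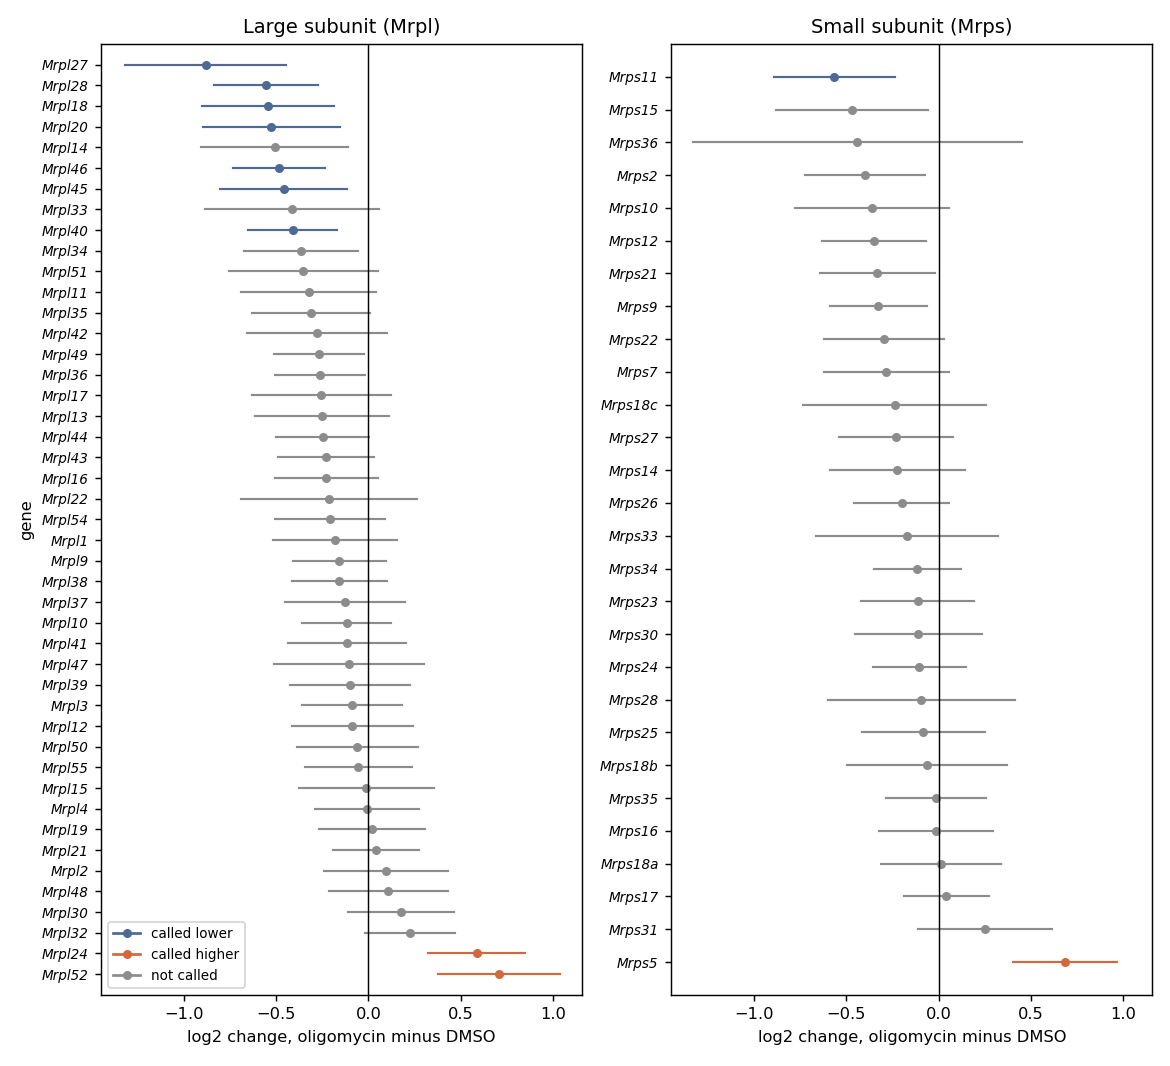
Log2 change in log2(FPKM + 1), oligomycin minus DMSO, for each of the 45 Mrpl genes (left) and 28 Mrps genes (right); points are fitted changes from 3 libraries per group, bars their 95% intervals, and colours mark the calls. Points lie left of 0 for 37 Mrpl and 24 Mrps genes, and Mrpl24, Mrpl52 and Mrps5 stand apart on the right.

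By name, 7 Mrpl genes fell and 2 rose (15.6% and 4.44% of 45), with a median log2 change of -0.21. Of the Mrps genes, 1 fell and 1 rose (3.57% each of 28), with a median of -0.18. Over all rows tested, 16.1% fell and 14.0% rose. Groups did not overlap for 17 Mrpl genes that were lower and 3 that were higher (37.8% and 6.67%). For Mrps genes these were 9 and 1 (32.1% and 3.57%), against 24.3% and 23.1% of all rows. Structures of the mammalian mitoribosome place the products of Mrps30 and Mrps18a in the large subunit, while the product of Mrps36 is now assigned to another mitochondrial enzyme complex. Assigned that way, 47 large subunit genes held 7 lower and 2 higher calls (14.9% and 4.26%), with a median of -0.18. The 25 small subunit genes held 1 and 1 (4% each), with a median of -0.20. The difference between the subunits was not tested. The levels of the subunits stayed in a narrow ratio: summed Mrpl over summed Mrps FPKM was 1.91, 1.87 and 2.02 in DMSO and 2.02, 2.01 and 1.94 with oligomycin, and these ranges overlap.

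The 3 genes that rose encode proteins from different places of the particle. Mrpl52, a large subunit protein with no bacterial counterpart and the highest of the family by mean level at 230 FPKM, lay at 169, 183 and 169 FPKM in DMSO and at 341, 265 and 253 FPKM with oligomycin. The groups were far apart, with the first oligomycin library highest, and the mean rose 1.65-fold (log2 change 0.71 ± 0.15 SE, adjusted p = 0.00824). Mrps5, the counterpart of a bacterial small subunit protein near the channel where messenger RNA enters, lay at 23.3, 24.4 and 23.4 FPKM in DMSO and at 34.9, 44.8 and 36.9 FPKM with oligomycin. Its DMSO libraries were nearly equal, and the mean rose 1.64-fold (0.68 ± 0.12 SE, adjusted p = 0.00474). Mrpl24, the counterpart of a bacterial protein that joins the large subunit early in assembly, lay at 74.6, 69.7 and 70.8 FPKM in DMSO and at 108, 118 and 99.0 FPKM with oligomycin. The mean rose 1.51-fold (0.59 ± 0.11 SE, adjusted p = 0.00671), again with no overlap. The row of Mrpl24 shares its locus with Rrnad1, a gene on the opposite strand with lower levels of 4.55, 6.96 and 6.68 FPKM in DMSO and 5.86, 12.5 and 7.68 FPKM with oligomycin (log2 change 0.42, adjusted p = 0.238). In the loci of the table (GRCm38), these genes lie at chr14:54426909-54429750 (Mrpl52), chr2:127587426-127603986 (Mrps5) and chr3:87919544-87930195 (Mrpl24). The calls of Mrpl52, Mrps5 and Mrpl24 stood when any 1 library was left out.

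Among the genes that fell, Mrpl27 had the largest change. It encodes the counterpart of bacterial L27, which reaches toward the peptidyl transferase centre, where peptide bonds are formed. It lies at chr11:94653791-94660087. Its level was 20.7, 22.4 and 17.0 FPKM in DMSO and 13.5, 7.79 and 10.5 FPKM with oligomycin, and the DMSO mean was 1.89-fold the oligomycin mean (log2 change -0.88 ± 0.19 SE, adjusted p = 0.0102). No library of one group reached the other, and the call stood without any 1 library. Eme1, a DNA repair gene annotated on the opposite strand across part of Mrpl27, fell as well, from 12.1, 15.7 and 16.3 FPKM to 6.28, 5.22 and 5.80 FPKM (log2 change -1.21, adjusted p = 0.000637). In the loci of the table these rows do not overlap: Eme1 ends at chr11:94653754, before Mrpl27 starts at chr11:94653791. Whether the counting used strand is not given in the sources used here. Without strand, reads from overlapping genes cannot be told apart.

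Mrpl28, the counterpart of another bacterial large subunit protein, fell from 68.7, 81.4 and 71.7 FPKM to 56.0, 47.2 and 46.9 FPKM (log2 change -0.55 ± 0.12 SE, adjusted p = 0.0117), and its call too stood without any 1 library. Mrpl20, the counterpart of a bacterial protein that binds the large ribosomal RNA early in assembly, lay at 162, 179 and 167 FPKM in DMSO and 150, 103 and 104 FPKM with oligomycin (-0.53 ± 0.16 SE, adjusted p = 0.0408). Its first oligomycin library was close to the DMSO range, and its call was lost on leaving out any library but that one (adjusted p 0.0869 to 0.130).

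The central protuberance is the knob at the top of the large subunit that contacts the transfer RNAs and the small subunit. Of 5 genes listed for it here, 3 fell (60%, against 16.1% of all rows): Mrpl18, Mrpl46 and Mrpl40. The list may not hold every protein of that knob, so the share describes the 5 listed genes only. The median log2 change of the 5 was -0.41. Mrpl18 went from 104, 100.4 and 100.2 FPKM to 85.2, 55.5 and 70.4 FPKM (-0.54 ± 0.16 SE, adjusted p = 0.0321). Mrpl46 went from 49.8, 54.8 and 55.0 FPKM to 39.4, 35.2 and 38.6 FPKM (-0.48 ± 0.11 SE, adjusted p = 0.0118). Mrpl40 went from 48.4, 51.8 and 53.4 FPKM to 39.7, 36.6 and 38.5 FPKM (-0.41 ± 0.10 SE, adjusted p = 0.0197). Mrpl46 and Mrpl40, both genes for mitochondria-specific proteins, had tight groups, whereas the oligomycin libraries of Mrpl18 were widely spread. The uncalled pair was Mrpl38, at 28.5, 29.5 and 28.6 FPKM in DMSO and 28.5, 25.6 and 23.4 FPKM with oligomycin (-0.16, adjusted p = 0.311), and Mrpl48 (0.11, adjusted p = 0.585). The count of 3 depended on single libraries: without each library in turn it was 2, 1 and 0 for DMSO 1, 2 and 3, and 3, 2 and 1 for oligomycin 1, 2 and 3. Mrpl46 was lost without DMSO 3 (adjusted p = 0.0585), Mrpl40 without DMSO 2 or 3 or oligomycin 3 (0.0554 to 0.0901), and Mrpl18 without any library but oligomycin 1 (0.0640 to 0.0923). After the scaling without small RNA rows the count was 1. Tcp1, a chaperonin subunit gene on the opposite strand, overlaps the annotated body of Mrpl18 and fell too. It went from 488, 426 and 428 FPKM to 351, 253 and 315 FPKM (-0.56, adjusted p = 0.0297). In the loci of the table the rows do not overlap: Mrpl18 ends at chr17:12916091, before Tcp1 starts at chr17:12916465.

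At the exit of the tunnel through which the new peptide leaves, 1 of 6 genes fell and 1, Mrpl24, rose (16.7% each, against 16.1% and 14.0% of all rows). The gene that fell was Mrpl45, whose product holds the mitoribosome to the inner membrane. It lay at 29.3, 25.9 and 30.5 FPKM in DMSO and at 25.4, 18.6 and 18.0 FPKM with oligomycin (-0.46 ± 0.15 SE, adjusted p = 0.0486). This call was near the threshold and was lost on leaving out any library but oligomycin 1 (adjusted p 0.0662 to 0.150). In the stalk that recruits translation factors, 0 of 4 genes were called by limma or had an unadjusted p under 0.05, and Mrpl12, the stalk protein itself, overlapped between groups at 91.95, 109 and 109 FPKM in DMSO and 114, 84.9 and 94.3 FPKM with oligomycin (-0.09, 95% interval -0.41 to 0.24, adjusted p = 0.668). Its neighbours were Mrpl10 (-0.12, adjusted p = 0.425) and Mrpl11 at the stalk base (-0.32, adjusted p = 0.157). Around the peptidyl transferase centre, 1 of 4 genes fell, Mrpl27 (25%, against 16.1%), with a median of -0.16 for the 4. Mrpl3, also near that centre, was at 58.2, 51.0 and 61.1 FPKM and 57.5, 50.3 and 51.8 FPKM, so its groups overlapped (-0.09, adjusted p = 0.583).

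**Figure D2:**
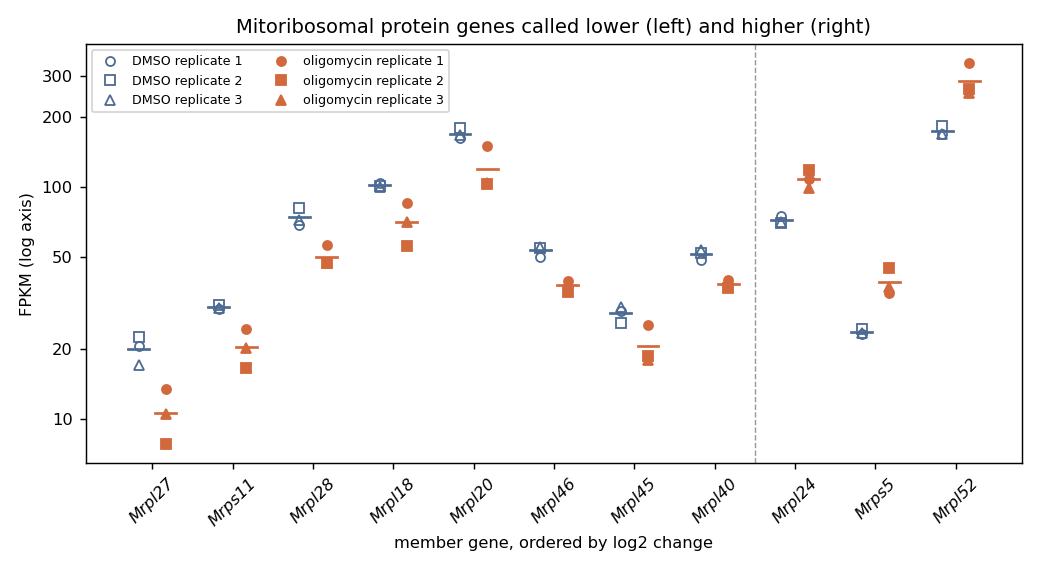
FPKM on a log axis of the 11 called genes in each library (open symbols DMSO, filled symbols oligomycin, shapes the column numbers), with group means as lines, for the 8 lower genes left of the dashed line and the 3 higher genes right of it. In every gene the 3 oligomycin symbols lie on one side of the 3 DMSO symbols; Mrpl27 reaches 7.79 FPKM and Mrpl52 341 FPKM.

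In the small subunit, the 5 genes along the path of the messenger RNA held 1 lower and 1 higher call (20% each, against 16.1% and 14.0%) with a median of -0.28. Over all 28 Mrps genes, Mrps11 was the only one that fell and Mrps5 the only one that rose. Mrps11, the counterpart of a bacterial protein of the platform, near where messenger RNA leaves the subunit, went from 29.8, 31.0 and 30.0 FPKM to 24.3, 16.5 and 20.3 FPKM (-0.56 ± 0.14 SE, adjusted p = 0.0196). The DMSO values were nearly equal and the oligomycin values spread, and the call was lost without any of the DMSO libraries or oligomycin 3 (adjusted p 0.0543 to 0.0616). Mrps11, at chr7:78783131-78792988, and Mrpl46, at chr7:78775341-78783089, are neighbours that start in opposite directions, 41 bases apart in the loci of the table, and their bodies overlap by 413 bases in GENCODE M21. Both fell. Over the whole family, 39 of 73 genes, and 7 of the 11 called, overlap another annotated gene, 34 of the 39 with a gene on the opposite strand. The share over all rows was not counted, and whether overlap bears on the calls was not tested.

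Other small subunit genes stayed on the uncalled side. Mrps12, the counterpart of the bacterial decoding centre protein S12, went from 81.8, 77.1 and 80.1 FPKM to 69.2, 54.0 and 64.6 FPKM, without overlap (-0.35, adjusted p = 0.0633). Mrps15 showed 36.5, 35.2 and 34.5 FPKM against 33.3, 19.2 and 25.2 FPKM (-0.47, adjusted p = 0.0806). Mrps22, a mitochondria-specific protein, showed 37.7, 35.5 and 41.6 FPKM against 35.04, 25.5 and 32.9 FPKM (-0.30, adjusted p = 0.146). In each of these 3 genes the second oligomycin library was lowest. The highest small subunit genes by mean level were Mrps21 at 129 FPKM (-0.33, adjusted p = 0.0978), Mrps16 at 103 FPKM (-0.01, adjusted p = 0.944) and Mrps18c at 96.4 FPKM (-0.24, adjusted p = 0.427). The other paralogs of the S18 family, Mrps18a (0.01, adjusted p = 0.950) and Mrps18b (-0.06, adjusted p = 0.817), overlapped between groups, as did Mrps30 (-0.11, adjusted p = 0.602). On the upper side, Mrps31 (0.25, adjusted p = 0.260) and Mrps17 (0.04, adjusted p = 0.768) were not called. Mrps36 had the lowest level of the family, a mean of 3.27 FPKM, with 6.08, 3.26 and 2.21 FPKM in DMSO and 4.79, 1.12 and 2.15 FPKM with oligomycin, and 3 annotated pseudogenes with which it may share reads.

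In the large subunit the uncalled genes with the largest changes were Mrpl14, an interface protein, and Mrpl33 below, and Mrpl32 and Mrpl30 above. Mrpl14 was at 36.3, 41.8 and 34.2 FPKM in DMSO and 27.1, 32.2 and 20.0 FPKM with oligomycin (-0.51, adjusted p = 0.0564). Mrpl33, the second highest gene of the family, was at 271, 234 and 237 FPKM and at 228, 131 and 211 FPKM (-0.41, adjusted p = 0.161). Groups did not overlap in either gene, but the oligomycin libraries were spread. Mrpl32, whose product is matured by a protease of the inner membrane, was at 49.1, 46.6 and 43.6 FPKM and at 52.6, 57.5 and 53.2 FPKM (0.22, adjusted p = 0.147), the fourth gene with all oligomycin libraries above. Mrpl30 overlapped between groups (0.18, adjusted p = 0.311). Mrpl17 had the lowest large subunit level, 10.0 FPKM (-0.26, adjusted p = 0.267). Over the family, mean levels ran from 3.27 to 230 FPKM with a median of 36.8 FPKM, against a median of 14.7 FPKM for all rows tested.

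The 3 oligomycin libraries did not carry the lower levels equally. Averaged over the 73 genes as log2(FPKM + 1) relative to each gene's mean over 6 libraries, DMSO libraries stood at 0.11, 0.09 and 0.06, and oligomycin libraries at 0.09, -0.22 and -0.13. The first oligomycin library was thus within the DMSO range, while the other libraries of that group lay below it. It was the highest of its group in 57 of 73 genes (78.1%, against 41.6% of all rows), and the second was the lowest in 44 (60.3%, against 33.9%). Both subunits showed the same order, with 0.09, -0.21 and -0.15 for Mrpl and 0.10, -0.25 and -0.10 for Mrps in the oligomycin libraries. Leaving out oligomycin 1 gave 15 lower genes (20.5%, against 18.8% of all rows) and 3 higher, and leaving out oligomycin 2 gave 6 lower (8.22%, against 14.1%) and 4 higher. Without oligomycin 3 there were 3 lower (4.11%, against 11.2%) and 3 higher. Without DMSO 1, 2 or 3 there were 4, 3 and 2 lower (5.48%, 4.11% and 2.74%, against 10.8%, 10.5% and 10% of all rows), each with 3 higher. The calls over all rows went from 3013 to between 1769 and 2022 in those last 3 fits, so calls were fewer over all rows too. What sets the first oligomycin library apart in these genes was not tested.

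**Figure D3:**
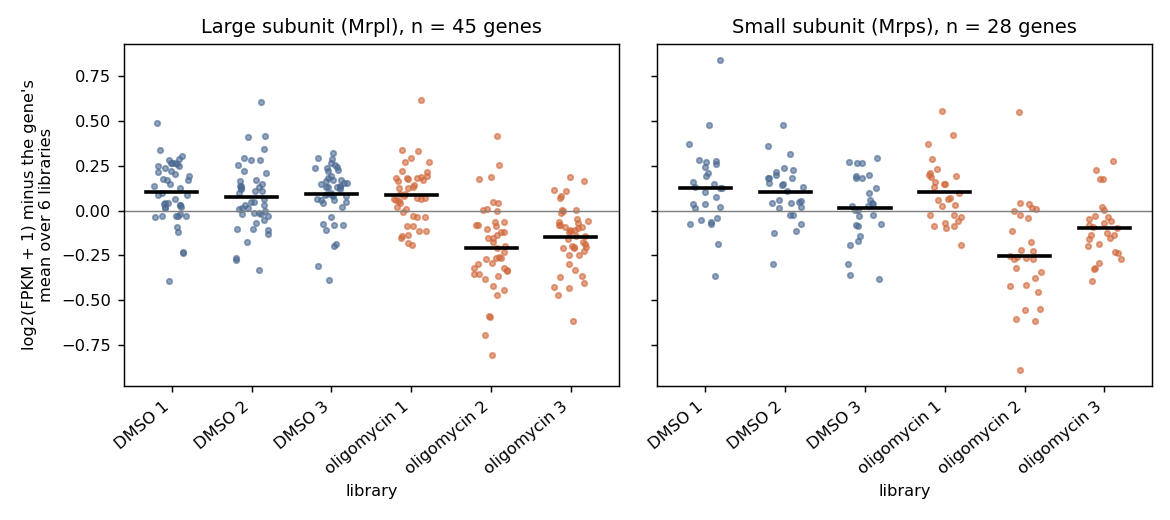
Level of each Mrpl gene (left, 45) and Mrps gene (right, 28) in each library, as log2(FPKM + 1) minus the gene's mean over the 6 libraries; points are genes and black bars the means over genes. The bar of the first oligomycin library lies at 0.09 for Mrpl and 0.10 for Mrps, level with DMSO, and the second lies lowest at -0.21 and -0.25.

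Genes were also grouped by origin, with no test of the difference between groups. Over all rows, 16.1% were called lower and 14.0% higher. In the large subunit, 28 genes with a counterpart held 4 lower and 1 higher calls (14.3% and 3.57%), with a median of -0.20. There, 19 mitochondria-specific genes held 3 and 1 (15.8% and 5.26%), with a median of -0.16. In the small subunit, 15 genes with a counterpart held 1 and 1 (6.67% each), with a median of -0.28. There, 10 mitochondria-specific genes held 0 and 0 by limma, also at an unadjusted p under 0.05, with a median of -0.11. Of the mitoribosomal proteins under names outside the family, 7 were tested and 0 were called in either direction by limma, with a median of -0.14. They included Dap3, a small subunit protein that binds GTP, and Ict1, a peptide release protein built into the large subunit. At an unadjusted p under 0.05 there were 2, Ptcd3 (-0.34, adjusted p = 0.0861) and Gadd45gip1 (-0.33, adjusted p = 0.112), both lower.

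Genes whose products act on the mitoribosome were described from 3 further lists. Of 22 assembly factors (rRNA modifying enzymes, GTPases and helicases), 0 fell by limma (1 at an unadjusted p under 0.05) and 3 rose, or 13.6% against the background of 14.0%, while 19 of 22 had a positive sign and the median was 0.16. Mrm1, which methylates the large ribosomal RNA, went from 7.19, 9.30 and 7.69 FPKM to 11.6, 13.6 and 12.7 FPKM (0.59 ± 0.13 SE, adjusted p = 0.0110). Gtpbp5, a GTPase of large subunit assembly, went from 12.9, 10.9 and 13.9 FPKM to 18.6, 17.0 and 18.7 FPKM (0.50 ± 0.12 SE, adjusted p = 0.0178). Mettl17, a methyltransferase-like protein of small subunit assembly, went from 7.29, 9.06 and 9.20 FPKM to 10.9, 14.8 and 12.9 FPKM (0.54 ± 0.15 SE, adjusted p = 0.0263). Mrm1 stood without any 1 library. Gtpbp5 was lost without DMSO 2 or oligomycin 3 (adjusted p = 0.0643 and 0.0577), and Mettl17 without DMSO 1 or 3 or oligomycin 2 or 3 (adjusted p 0.0541 to 0.0900). The count of assembly factors that rose was 6 after the scaling without small RNA rows, where 19.2% of all rows rose. That count was 1 without oligomycin 3, where 9.51% of all rows rose.

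Of 14 translation factors, 0 fell by limma (1 at an unadjusted p under 0.05, Mtfmt) and 3 rose (21.4%, against 14.0% of all rows), with a median of 0.04 and 7 positive signs. With locus-sharing rows left out, 9 remained, of which 2 rose and 3 had a positive sign, and the median was -0.10. Metap1d and Pdf act in turn on the first residue of new mitochondrial proteins: the peptide deformylase Pdf removes the formyl group, and the aminopeptidase Metap1d then removes the methionine. Metap1d lay at 2.67, 2.47 and 1.83 FPKM in DMSO and at 8.11, 6.86 and 6.20 FPKM with oligomycin. It was 3.04-fold higher by the means (1.28 ± 0.16 SE, adjusted p = 0.000823), a larger change than that of any of the 73 genes. Its DMSO level was near the filter of 1 FPKM. Its log2 change was 1.57 with a pseudocount of 0.1 and 0.72 with a pseudocount of 5. Pdf lay at 21.9, 21.2 and 21.6 FPKM and at 30.8, 31.2 and 32.1 FPKM (0.52 ± 0.10 SE, adjusted p = 0.00609), with both groups tight. Cog8, annotated over Pdf on the same strand, had overlapping groups (0.06, adjusted p = 0.790). Vps4a is annotated over Pdf on the opposite strand, and Metap1d, Mrrf and Mettl17 overlap annotated genes as well. Levels of those genes are not given here. Mrrf, the factor that takes the ribosome apart after termination, lay at 12.5, 15.7 and 14.2 FPKM and at 23.8, 18.8 and 21.2 FPKM (0.55 ± 0.13 SE, adjusted p = 0.0158). Its row shares a locus with another gene, and its call was lost without DMSO 1 or DMSO 3 (adjusted p = 0.0612 and 0.0538). Metap1d and Pdf stood without any 1 library. The formyltransferase Mtfmt, which adds the formyl group to the initiator transfer RNA, was picked after its values were seen. It was lower in all 3 oligomycin libraries but not called (-0.37, adjusted p = 0.0529). Of 10 genes for mitochondrial transcription and RNA handling, 1 fell (10%, against 16.1% of all rows). It was the RNA degrading enzyme Pnpt1, which went from 27.1, 28.6 and 30.4 FPKM to 21.99, 18.6 and 24.6 FPKM (-0.39 ± 0.13 SE, adjusted p = 0.0482). That call was lost without any 1 library except oligomycin 3 (adjusted p 0.0660 to 0.156).

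**Figure D4:**
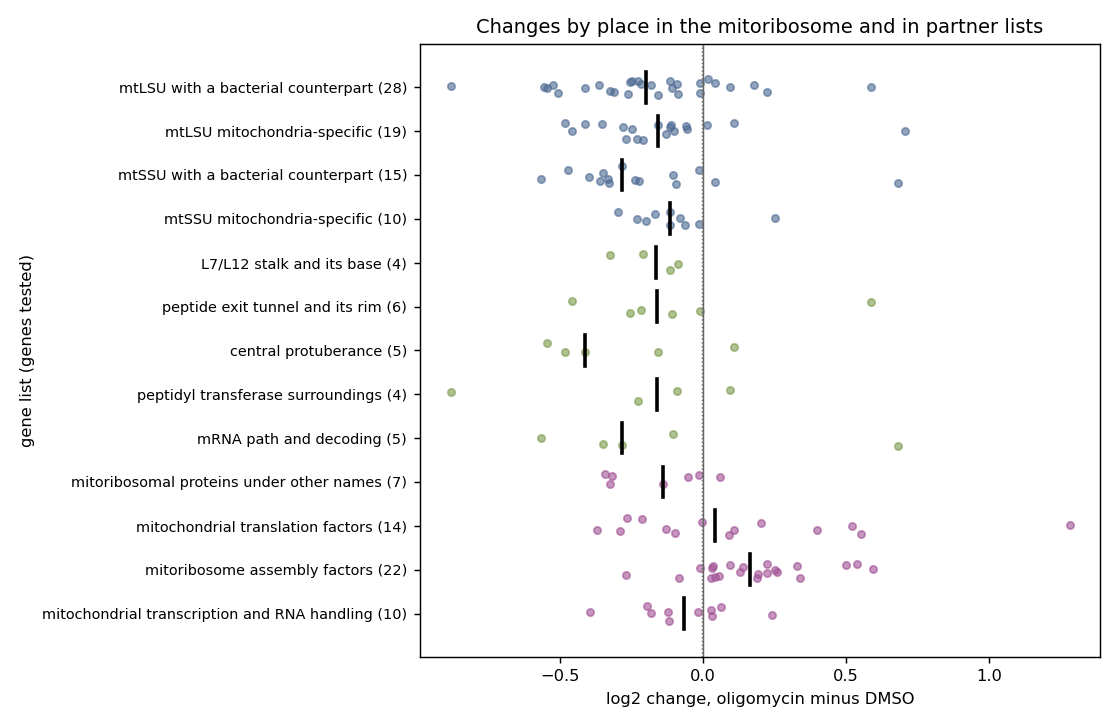
Log2 change, oligomycin minus DMSO, of each gene in the lists by structure (blue), by site in the mitoribosome (green) and of partner genes (purple); black bars are list medians, the solid line is 0 and the dotted line the median of all rows tested. The genes listed for the central protuberance have a median of -0.41, and the assembly factors have a median of 0.16. Metap1d is the purple point at 1.28.

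Promoter sequences were read for the 3 genes that rose and for the 2 with the largest falls, to show what genes moving in opposite ways carry upstream of their starts. They come from RefSeq on GRCm38.p6 and run from 250 bases before to 50 bases after the annotated start, on the plus strand in all 5. Capitals mark an exact match to a motif searched on both strands: CCGGAAGT for ETS factors, AAGATGGC for YY1, GCATGCGC for NRF1, and TGATGCAA, a composite site of ATF4 and C/EBP. These motifs do not contain each other. The windows lie at chr14:54426659-54426958 for Mrpl52, chr2:127587176-127587475 for Mrps5, chr3:87919294-87919593 for Mrpl24, chr11:94653541-94653840 for Mrpl27 and chr7:78782881-78783180 for Mrps11.
Mrpl52: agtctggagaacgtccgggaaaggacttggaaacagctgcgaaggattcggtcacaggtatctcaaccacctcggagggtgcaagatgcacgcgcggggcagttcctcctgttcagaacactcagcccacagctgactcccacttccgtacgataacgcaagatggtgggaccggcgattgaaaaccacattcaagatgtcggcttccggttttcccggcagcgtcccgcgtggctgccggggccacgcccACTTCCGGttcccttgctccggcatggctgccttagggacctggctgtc
Mrps5: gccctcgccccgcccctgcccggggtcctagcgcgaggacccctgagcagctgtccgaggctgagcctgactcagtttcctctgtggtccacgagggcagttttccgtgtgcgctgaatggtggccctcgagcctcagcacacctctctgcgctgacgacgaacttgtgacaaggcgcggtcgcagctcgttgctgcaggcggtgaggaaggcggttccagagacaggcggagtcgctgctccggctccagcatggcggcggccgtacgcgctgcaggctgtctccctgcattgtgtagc
Mrpl24: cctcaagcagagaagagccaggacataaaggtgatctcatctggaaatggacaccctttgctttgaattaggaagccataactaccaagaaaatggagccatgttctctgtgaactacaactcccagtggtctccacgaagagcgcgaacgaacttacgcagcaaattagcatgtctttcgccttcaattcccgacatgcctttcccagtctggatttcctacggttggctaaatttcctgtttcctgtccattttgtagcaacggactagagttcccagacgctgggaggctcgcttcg
Mrpl27: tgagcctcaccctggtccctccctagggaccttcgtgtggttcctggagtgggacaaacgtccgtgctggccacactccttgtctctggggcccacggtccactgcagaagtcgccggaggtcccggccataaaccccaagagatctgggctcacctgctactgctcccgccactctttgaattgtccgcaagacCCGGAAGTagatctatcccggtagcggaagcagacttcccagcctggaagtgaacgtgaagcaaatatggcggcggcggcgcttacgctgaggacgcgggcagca
Mrps11: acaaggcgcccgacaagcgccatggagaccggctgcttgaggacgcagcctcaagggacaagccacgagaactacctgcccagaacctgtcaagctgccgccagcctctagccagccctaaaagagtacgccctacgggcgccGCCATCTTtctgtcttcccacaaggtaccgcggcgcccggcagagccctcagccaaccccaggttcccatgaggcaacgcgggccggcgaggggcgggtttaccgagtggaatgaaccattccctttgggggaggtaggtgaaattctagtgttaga

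In these windows the ETS word begins 1 base after the start of Mrpl52, on the minus strand, and 55 bases before the start of Mrpl27, on the plus strand. The word for YY1 begins 107 bases before the start of Mrps11, on the minus strand. Mrps5 and Mrpl24 held none of the words. A gene that rose and a gene that fell thus carried the same ETS word. Over the family, 64 of 73 genes matched the promoter table, with 70 windows of 300 bases. The word for YY1 stood in 17.1% of them, against 4.85% of the windows of all genes in the table and 2.75% of all windows, and the ETS word in 17.1%, against 9.22% and 3.89%. The NRF1 word stood in 11.4%, against 5.85% and 2.71%, in 7 of 44 Mrpl windows and 1 of 26 Mrps windows. Mrpl32 held 4 matches of it, and those 87 and 85 bases before the start, on opposite strands, overlap each other. The ATF4 and C/EBP word was found in 0 of 70 windows, against 0.605% and 0.895%, and with any base at the sixth position (TGATGNAA) also in 0, against 2.22% and 3.97%. A match is a description of letters and does not show that a factor binds there.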

How the data were processed

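RNA-seq of 6 libraries, 3 with DMSO and 3 with oligomycin, was used. The authors deposited 1 FPKM value per gene and library. The build GRCm38 (mm10), Cuffdiff 2.2.1.3, Cuffnorm 2.2.1.1, Cufflinks 2.2.1.0 and TopHat2 2.1.0 are named per the submitters' processing notes. Annotation, scaling between libraries and strand were not given in the sources used here. FPKM divide by transcript length and library size, so no count model was used.

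Here log2(FPKM + 1) was tested with limma 3.58.1 (R 4.3.3), an intensity trend and group as the sole term; p-values were 2-sided and adjusted by Benjamini and Hochberg's method over the 9986 rows that reached 1 FPKM in 3 or more libraries. The pseudocount of 1 understates the change of low genes. Fold values are ratios of mean FPKM, errors are SE, and levels stand in the order of the column numbers 1 to 3, which match no sample title. The procedure was also run on simulated data, with noise drawn independently for each gene and library. Those data hold no shared movement of genes within a library, so they are no support for the calls here. Depth is unknown and no row lay on the mitochondrial chromosome. Overlaps come from GENCODE M21 and promoters from RefSeq.

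Members and lists were chosen with earlier results of these data known. Named genes are all called members, per subunit the 3 highest, the lowest and the 2 uncalled with the largest change each way, a list of landmark genes, and called partners, up to 4 a list; genes overlapping these were added after their values were seen. Protein sequences, planned for the same genes, were not used here.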

Additional observations from a re-analysis of the deposited data

How the results depend on the processing

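None of the 11 called genes changed sign under a pseudocount of 0.1 or 5, quantile normalization, no filter, a filter at 5 FPKM, scaling without small RNA rows, no intensity trend, locus-sharing rows left out or any library left out. Mrpl52, Mrps5, Mrpl27 and Mrpl28 kept their calls in all of these, and Mrpl24 in all that tested it. The Mrpl genes called lower numbered 4 under quantile normalization and 3 under the scaling. Those called higher numbered 4 under quantile normalization and 1 without locus-sharing rows, where Mrpl24 is left out by construction. Over all rows, 14.5% fell and 15.5% rose under quantile normalization, and 12.8% and 19.2% under the scaling. The Mrpl median was -0.10 under both the quantile normalization and the scaling. Leaving out 1 library gave 2 to 10 Mrpl genes lower, 0 to 5 Mrps genes lower and 1 to 2 Mrps genes higher. The count of 0, by limma, came without DMSO 1, 2 or 3 or oligomycin 3, where 2 to 3 Mrps genes were lower at an unadjusted p under 0.05. Mrpl45 lost its call under the pseudocount of 0.1, without the filter and without the trend. Mrpl18, Mrpl20 and Mrpl45 lost theirs under quantile normalization and the scaling, and Mrpl40 under the scaling. The cause was not tested. How far depth limits these calls is unknown, since the values are FPKM. No paired analysis was possible because the columns carry numbers that match none of the sample titles, whose numbers occur in both groups.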

Other observations

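Of the family, 2 further symbols stand in rows that name another gene as well and were left out by the rule. The row of Mrps6 and Slc5a3, an inositol transporter gene, lay at 73.5, 60.5 and 67.0 FPKM in DMSO and at 99.0, 73.8 and 76.5 FPKM with oligomycin (log2 change 0.30, limma adjusted p = 0.151). All 3 oligomycin libraries were above DMSO, but the share of either gene in that row is not known. The row of Ccdc142 and Mrpl53 lay at 55.9, 52.7 and 53.8 FPKM in DMSO and at 45.9, 39.0 and 46.8 FPKM with oligomycin (-0.30, adjusted p = 0.0787), with all 3 oligomycin libraries below.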
